A study of Mus musculus with 6 samples.

Results

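The secreted angiogenic growth factors are 9 genes chosen by name: Vegfa, Vegfb, Vegfc and Pgf of the VEGF family, the angiopoietins Angpt1 and Angpt2, the angiopoietin-like gene Angptl4, and the heparin-binding mitogen genes Fgf2 and Hgf. All 9 were found among the 51826 genes of the deposited tables, and all 9 passed the low-count filter that left 14652 genes for testing. They were measured by messenger RNA sequencing in cultures of fibroblasts from mouse embryos of C57BL/6 background (MEFs), all at passage 2 to 5. The groups were 3 wild-type cultures (Lztr1 +/+, numbered 10, 12 and 16) and 3 cultures heterozygous for Lztr1 (Lztr1 +/-, numbered 11, 15 and 18), with no treatment named. Lztr1 encodes a substrate adaptor of a CUL3 ubiquitin ligase whose targets include RAS-family GTPases. The design asks which transcripts differ between the genotypes. The sources used here do not state which allele was disrupted or whether each culture derives from a different embryo. Sex-linked transcripts, given below, show cultures of both sexes in each group, so the cultures of a group do not all derive from the same embryo. A p-value sets the difference between genotypes against the spread between cultures, part of which may be technical.

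VEGF proteins are secreted dimers that bind receptor tyrosine kinases on the endothelium and drive vessel sprouting and permeability, with VEGF-C acting mainly on lymphatic vessels. Angiopoietin-1 activates the TIE2 receptor and stabilises vessels, and angiopoietin-2 can oppose it at the same receptor. FGF-2 acts on FGF receptors of many cell types, and HGF acts on the MET receptor. Fibroblasts and other stromal cells are a known source of these ligands, while the VEGF receptor kinases and TIE2 are characteristic of endothelial cells. In such cultures fewer cells of a type and less RNA per cell cannot be told apart.

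Values by culture are given below in the order 10, 12, 16 for the wild-type and 11, 15, 18 for the heterozygous group. Library totals lay between 11025286 and 21885101 expected counts, and a count of 3 was worth 0.138 to 0.275 CPM (read counts scaled to library size and composition). Lztr1 itself measured 83.2 to 94.1 CPM in the wild-type and 43.8 to 45.9 CPM in the heterozygous libraries, so every library matched its label. It was the only gene called in edgeR at an adjusted p under 0.05, 0.00683% of the genes tested. Without wild-type culture 16 edgeR called 896 genes. The wild-type cultures then left share a culture number run and a registration, described next, so the absence of culture 16 and these divisions cannot be told apart. Cultures 10, 12, 15 and 18 were registered with the archive before 11 and 16, and the numbers themselves fall into a run of 10 to 12 and another of 15 to 18. Neither division is named as a batch in the labels, so values within both are given beside the pooled ones. The values within a run or registration are differences of mean log2 CPM (prior count of 2). Those printed with an adjusted p come from an edgeR fit instead and can differ slightly. Xist was at 598 to 722 CPM in cultures 10, 16 and 11, and the Y-linked gene Ddx3y at 100.1 to 112 CPM in cultures 12, 15 and 18, so the sexes were unequally spread over the groups. Fibroblast markers were abundant, with all 10 detected in every library and a summed level of 9546 to 11258 TPM (transcript abundance scaled for length) in the wild-type and 9129 to 10541 TPM in the heterozygous cultures. Endothelial markers were low but present, with 10 of 10 detected in each library at a summed 33.8 to 34.6 TPM and 27.7 to 37.0 TPM. None of them was at 0 in all libraries, and Pecam1 and Cdh5 averaged 1.48 and 1.52 TPM in wild-type cultures.

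Compared per length, Vegfa and Vegfb stood well above the other growth factors. Vegfa averaged 48.6 TPM over the 6 libraries (38.7 to 60.8) and Vegfb 36.1 TPM (28.6 to 48.6), and Vegfa exceeded Vegfb in 6 of 6 libraries. The other 7 genes lay between 5.80 and 10.1 TPM on average, in the order Angpt2, Fgf2, Vegfc, Pgf, Angptl4, Hgf and Angpt1. Vegfb exceeded Angpt2, and Hgf exceeded Angpt1, in 6 of 6 libraries, whereas each of the neighbours between Angpt2 and Hgf overlapped in their ranges and changed order between libraries. The level of a gene over the cultures varied least for Vegfa, 1.35-fold between the highest and lowest CPM, and most for Angpt1, at 2.44-fold (from log2 CPM with a prior count of 2).

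None of the 9 growth factors was called between the genotypes in edgeR's quasi-likelihood test over all 14652 genes, where the lowest adjusted p of a member was 0.321. Angpt1, Vegfb and Hgf had an unadjusted p under 0.05, all with lower means in heterozygous cultures, and 12.2% of all genes had one. The groups did not overlap in CPM for 1 of the 9, Hgf, where heterozygous cultures were lower. Over all genes 17.7% did not overlap, 7.75% with heterozygous cultures higher and 9.97% with them lower. The mean was lower in heterozygous cultures for 6 of the 9 and higher for Vegfc, Angpt2 and Angptl4, with a median log2 difference of -0.16 beside 0.00 over all genes. The median size of the difference was 0.24 beside 0.12 over all genes. The SEs of the 9 ran from 0.092 to 0.30, beside a median SE of 0.11 over all genes, so the sizes are not compared at equal precision. Fibroblast markers also had lower means in heterozygous cultures for 7 of 10 genes, with a median of -0.19 and none called, and their part in these values was not tested. DESeq2 called 0.764% of genes and none of the 9, of which it gave an adjusted p to Vegfa, Vegfb, Angpt2 and Fgf2 and none to the other 5.

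**Figure D1:**
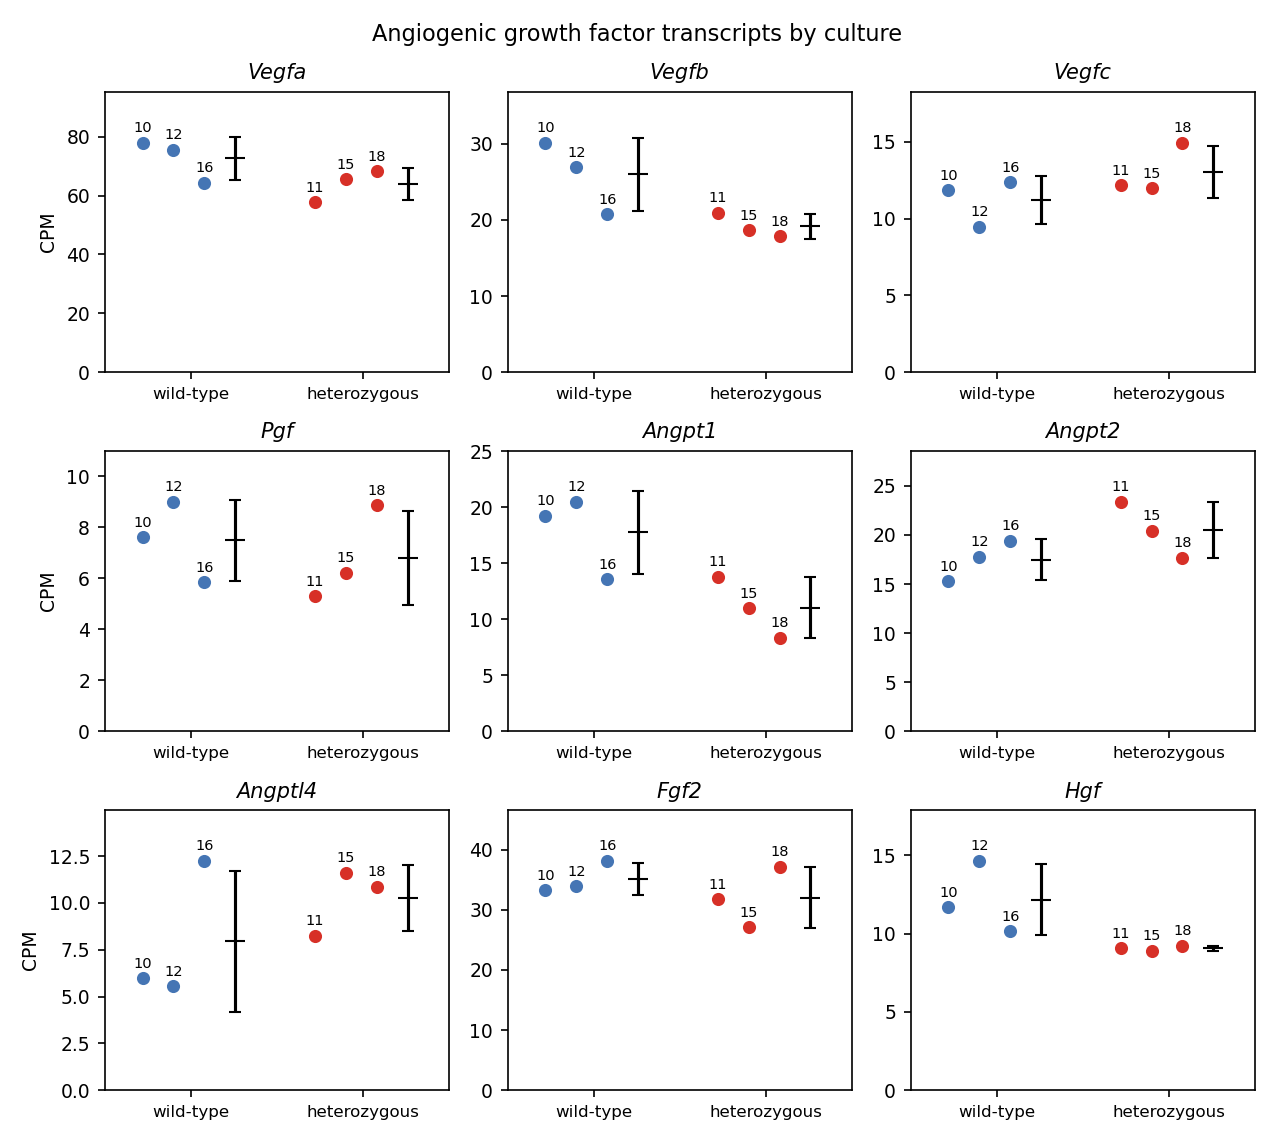
Each panel plots 1 growth factor in CPM (axes start at 0) for the 3 wild-type (blue) and 3 heterozygous (red) cultures, labelled by culture number, with black bars for mean and SD. Only the panel of Hgf has all red points below all blue points, from 8.92 to 9.24 against 10.2 to 14.7 CPM. Wild-type culture 16 lies within the heterozygous range for Vegfa, Vegfb, Vegfc, Pgf, Angpt1 and Angpt2, and above it for Angptl4, Fgf2 and Hgf.

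Among the VEGF ligands, Vegfb had the largest difference, with a lower mean in heterozygous cultures. Vegfb (ENSMUSG00000024962.13, chromosome 19, 6982473 to 6987651, minus strand, mm10) encodes a ligand of the receptor FLT1. It measured 30.2, 27.0 and 20.8 CPM in the wild-type and 21.0, 18.7 and 17.8 CPM in the heterozygous group. Wild-type culture 16 lay just under heterozygous culture 11, so the groups overlapped by these libraries. The means were 26.0 ± 4.77 and 19.2 ± 1.62 CPM (SD, n = 3 each), a ratio of 0.739 with a 95% interval of 0.591 to 0.925. The log2 difference was -0.44 (SE 0.14, adjusted p = 0.321 in edgeR). Taken by run it was -0.44 for cultures 10 to 12 and -0.19 for 15 to 18, and by registration -0.64 for the first 4 libraries and 0.01 for the later pair. Without wild-type culture 16 the difference was -0.57 at an adjusted p of 0.0242, and in the 4 libraries registered first it was -0.65 at 0.0126.

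Vegfa (ENSMUSG00000023951.17, chromosome 17, 46016993 to 46032369, minus strand) encodes the principal ligand of the endothelial receptor KDR and is a known target of hypoxia-inducible factors. Its wild-type libraries stood at 78.0, 75.6 and 64.4 CPM for cultures 10, 12 and 16, and the heterozygous ones at 57.8, 65.5 and 68.2 CPM for 11, 15 and 18. Cultures 10 and 12 were the highest, and culture 16 fell among the heterozygous cultures. The means of 72.7 ± 7.29 and 63.9 ± 5.39 CPM gave a ratio of 0.876 (95% interval 0.756 to 1.02) and a log2 difference of -0.19 (SE 0.092, adjusted p = 0.445 in edgeR). The sign was not kept within the culture number runs, at -0.41 within 10 to 12 and 0.06 within 15 to 18. By registration the difference was -0.20 in the first 4 libraries and -0.15 in the later pair.

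Vegfc (ENSMUSG00000031520.6, chromosome 8, 54077606 to 54187096, plus strand), the lymphatic growth factor gene, was the VEGF ligand gene with a higher mean in heterozygous cultures. It measured 11.8, 9.46 and 12.4 CPM in the wild-type and 12.2, 11.96 and 14.9 CPM in the heterozygous group. Culture 18 was highest and wild-type culture 12 lowest, and the other 4 lay close together. The log2 difference was 0.21 (SE 0.15, adjusted p = 0.587 in edgeR), a ratio of 1.15 (95% interval 0.914 to 1.46). It stood at 0.20 and 0.11 in the runs 10 to 12 and 15 to 18, at 0.33 in the first 4 libraries and at -0.02 in the later pair. In TPM, which divides by the mean length of the transcripts that RSEM assigned, the groups did not overlap, with 7.13 to 9.47 in the wild-type and 9.69 to 12.8 in the heterozygous cultures. That mean length was shorter in each heterozygous culture (2239, 2147 and 2124 bases) than in any wild-type culture (2272, 2449 and 2449 bases), as the lengths of 8.72% of tested genes also separated the groups in either direction. The deposited tables list 3 transcripts for the gene, a protein-coding one of 2449 bases with 7 exons and shorter ones of 555 and 501 bases with 4 exons each (lengths from the GENCODE annotation), so in wild-type cultures 12 and 16 the estimate lay wholly on the longest. These estimates rest on 107 to 264 counts a library, and the share of each transcript was not tested. With the effective length as an offset the log2 difference was 0.36, at an adjusted p of 0.480 in edgeR.

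Pgf (ENSMUSG00000004791.7, chromosome 12, 85166635 to 85177790, minus strand), encoding placental growth factor, another FLT1 ligand, varied within both groups. It measured 7.61, 9.02 and 5.86 CPM in the wild-type and 5.30, 6.23 and 8.88 CPM in the heterozygous cultures, in order of culture number, and the ranges nearly coincided. The log2 difference was -0.16 (SE 0.24, adjusted p = 0.809 in edgeR), and the 95% interval of the ratio, 0.613 to 1.304, was the widest of these 4 VEGF ligand genes. Within cultures 10 to 12 it was -0.63 and within 15 to 18 it was 0.34, while the first 4 libraries gave -0.15 and the later pair -0.14. Summed over the 4 genes, VEGF ligand transcripts came to 128, 120 and 88.5 TPM in the wild-type and 88.2, 89.5 and 103 TPM in the heterozygous group. Vegfa made up 46.4% to 47.5% of that sum in the wild-type and 43.9% to 49.3% in the heterozygous cultures, and Vegfc 5.94% to 9.72% and 10.9% to 12.4%.

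The angiopoietin genes leaned in opposite directions, with a lower mean of Angpt1 and a higher mean of Angpt2 in heterozygous cultures. Angpt1 (ENSMUSG00000022309.8, chromosome 15, 42424723 to 42676977, minus strand), the TIE2 agonist gene, measured 19.2, 20.5 and 13.5 CPM in the wild-type group. The heterozygous group stood at 13.8, 10.97 and 8.33 CPM. Cultures 10 and 12 were well above the rest, and wild-type culture 16 was just below heterozygous culture 11. The means of 17.8 ± 3.71 and 11.03 ± 2.72 CPM (SD, n = 3 each) gave a ratio of 0.628 (95% interval 0.449 to 0.880). This was the largest difference among the 9 genes, at -0.67 on the log2 scale (SE 0.21), with an adjusted p of 0.321 in edgeR. Within cultures 10 to 12 it was -0.52 and within 15 to 18 it was -0.50. In the libraries registered first it was -1.04, and in the later pair 0.02. The fit without wild-type culture 16 gave -0.82 at an adjusted p of 0.0486, and the 4 libraries registered first gave -1.03 at 0.0112. The gene shares 737 exonic bases with a predicted gene on the opposite strand, Gm17473, and reads from the opposite strands may not be told apart, since no source used here states the strand setting of the counting.

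Angpt2 (ENSMUSG00000031465.6, chromosome 8, 18690263 to 18741562, minus strand), which encodes the context-dependent antagonist, was at 15.3, 17.8 and 19.4 CPM in the wild-type and 23.4, 20.5 and 17.7 CPM in the heterozygous cultures. Heterozygous culture 18 lay among the wild-type cultures. The log2 difference was 0.24 (SE 0.13, adjusted p = 0.490 in edgeR), a ratio of 1.18 (95% interval 0.956 to 1.46). It was 0.50 within cultures 10 to 12 and -0.03 within 15 to 18, against 0.20 in the first 4 libraries and 0.27 in the later pair. In TPM the groups did not overlap, at 8.36 to 10.1 and 10.6 to 11.3. Culture 18, inside the wild-type range in CPM, had the shortest mean transcript length, 2929 bases against 3172 to 3560 in the other cultures. The lengths themselves did not separate the groups. With the effective length as an offset the log2 difference was 0.28, at an adjusted p of 0.447 in edgeR. Counted in TPM, 3 of the 9 genes separated the groups (Vegfc, Angpt2 and Hgf), as did 16.4% of all tested genes. The ratio of Angpt2 to Angpt1 in TPM, chosen after the values of both were seen and therefore not tested, was 1.07, 1.05 and 1.94 in the wild-type and 2.05, 2.54 and 3.15 in the heterozygous group. All heterozygous cultures were above all wild-type cultures, with culture 16 close to culture 11.

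**Figure D2:**
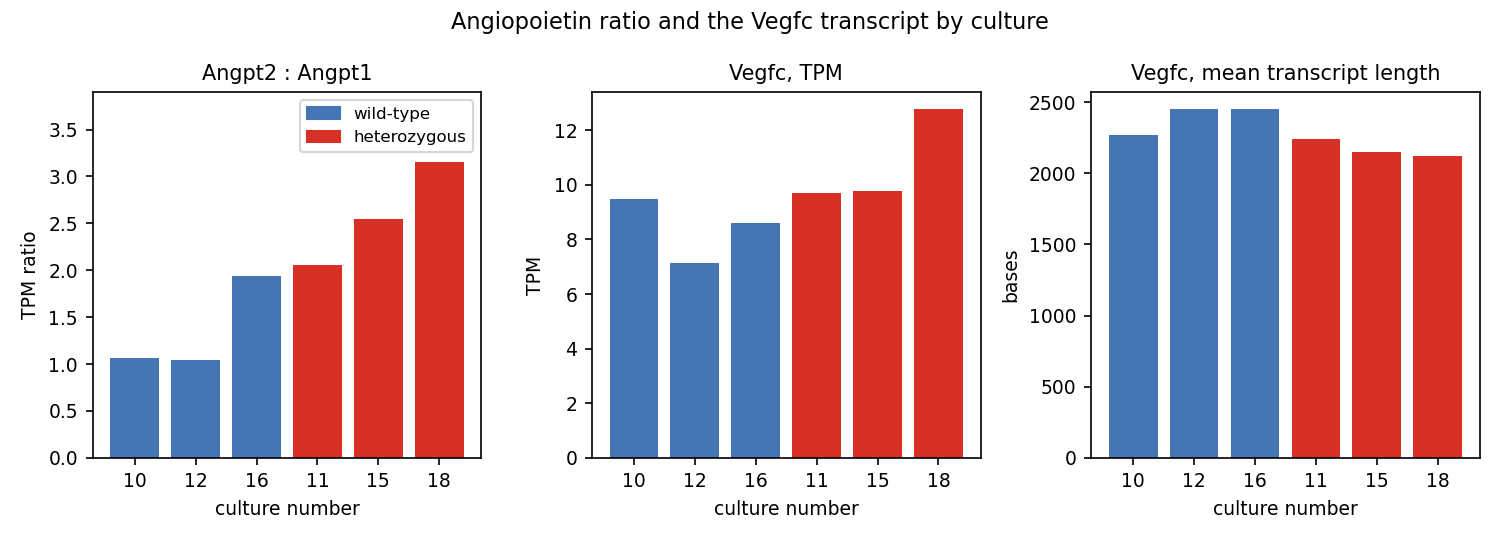
Bars show, for each culture (blue wild-type, red heterozygous), the ratio of Angpt2 to Angpt1 in TPM, the level of Vegfc in TPM and the mean length in bases of the Vegfc transcripts assigned by RSEM. The ratio is 1.05 to 1.94 in the blue and 2.05 to 3.15 in the red bars, and the length is 2272 bases or more in the blue and 2239 or less in the red bars.

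Angptl4 (ENSMUSG00000002289.15, chromosome 17, 33773750 to 33781830, minus strand) encodes a secreted inhibitor of lipoprotein lipase that is induced by PPAR factors and by hypoxia and that also affects vessel permeability. Its values were 5.99, 5.57 and 12.3 CPM in the wild-type, against 8.25, 11.6 and 10.9 CPM in the heterozygous group. Culture 16 had the highest value of all, and cultures 10 and 12 the lowest. The pooled log2 difference was 0.37 (SE 0.30, adjusted p = 0.636 in edgeR), a ratio of 1.29 with the widest 95% interval of the 9 genes, 0.798 to 2.09. Its sign depended on the set of cultures, at 0.50 for 10 to 12, -0.13 for 15 to 18, 0.94 in the libraries registered first and -0.57 in the later pair. In the first 4 libraries alone it was called, at 0.96 and an adjusted p of 0.0146 in edgeR, and without wild-type culture 16 it was 0.82 at 0.0523. Erythroid markers, of which 9 of 10 were detected in every library, also had culture 16 beside the heterozygous cultures. As a mean log2 level set against the wild-type average, the 8 tested ones stood at -0.35, -0.65 and 1.01 for the wild-type and 0.38, 0.90 and 0.76 for the heterozygous group. Their summed level was 127 to 442 TPM in the wild-type and 254 to 508 TPM in the heterozygous cultures, and their part in the values of Angptl4 was not tested. The placing of culture 16 was not particular to them. On the same log2 scale it lay within the heterozygous range for fibroblast, endothelial, macrophage, epithelial and skeletal muscle markers.

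Fgf2 and Hgf, the mitogen genes, both had lower means in heterozygous cultures. Hgf (ENSMUSG00000028864.7, chromosome 5, 16553495 to 16620152, plus strand) encodes the stromal ligand of MET. It measured 11.7, 14.7 and 10.2 CPM in the wild-type and 9.08, 8.92 and 9.24 CPM in the heterozygous group. The heterozygous cultures were close together and all below the wild-type cultures, among which culture 12 was highest. These values rest on 166, 166 and 111 counts in the wild-type and 197, 126 and 102 in the heterozygous libraries. At such counts, counting error limits what the closeness and the gap to culture 16 can show. Means of 12.2 ± 2.29 and 9.08 ± 0.161 CPM (SD, n = 3 each) gave a ratio of 0.745 (95% interval 0.585 to 0.949), a log2 difference of -0.42 (SE 0.15) and an adjusted p of 0.354 in edgeR. Taken by run, the difference was -0.52 for cultures 10 to 12 and -0.16 for 15 to 18, and by registration -0.52 and -0.16. Without wild-type culture 12 it was -0.27 at an adjusted p of 0.691. The gene shares 484 exonic bases with the predicted gene Gm43489 on the same strand.

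Fgf2 (ENSMUSG00000037225.13, chromosome 3, 37348346 to 37410108, plus strand) measured 33.3, 33.9 and 38.2 CPM in the wild-type and 31.8, 27.1 and 37.1 CPM in the heterozygous cultures, in order of culture number. Heterozygous culture 15 was lowest, and the other heterozygous cultures lay near or within the wild-type range. The log2 difference was -0.14 (SE 0.12, adjusted p = 0.655 in edgeR), a ratio of 0.909 (95% interval 0.753 to 1.097). It was -0.08 within cultures 10 to 12 and -0.27 within 15 to 18, and by registration likewise -0.08 and -0.27. Its exons share 640 bases with Nudt6 on the opposite strand and 255 with the predicted gene Gm43439, so part of its count may belong to them.

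Vegfb and Hgf are shown by the 250 bases before their RefSeq start sites, taken from RefSeq on GRCm38.p6, the assembly of mm10. Of the 9 genes, 6 had an entry in this table (Vegfa, Vegfb, Vegfc, Pgf, Fgf2 and Hgf). Among these 6, only Vegfb and Hgf had an unadjusted p under 0.05 in edgeR, and neither was called. Capitals mark the core of the site bound by hypoxia-inducible factors, ACGTG or GCGTG on either strand. The window of Vegfb is chr19:6987652-6987901 on the minus strand and that of Hgf, the first of 2 in the table, is chr5:16553245-16553494 on the plus strand, both read 5′ to 3′, and neither overlaps an annotated exon.
Vegfb: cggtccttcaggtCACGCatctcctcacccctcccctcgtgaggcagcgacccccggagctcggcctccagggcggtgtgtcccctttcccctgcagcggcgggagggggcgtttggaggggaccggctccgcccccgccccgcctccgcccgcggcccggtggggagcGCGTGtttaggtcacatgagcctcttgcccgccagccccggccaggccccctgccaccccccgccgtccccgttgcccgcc
Hgf: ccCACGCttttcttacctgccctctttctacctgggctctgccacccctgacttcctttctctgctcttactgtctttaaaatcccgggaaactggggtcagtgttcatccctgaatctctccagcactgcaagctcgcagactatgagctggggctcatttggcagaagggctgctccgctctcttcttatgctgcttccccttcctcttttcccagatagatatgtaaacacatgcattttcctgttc
The core occurs 2 times in the window of Vegfb, starting 237 and 81 bases before the start site, and 1 time in that of Hgf, starting 248 bases before it. In 38.6% of the 32851 promoter windows of this length at least 1 such core was found. The GC box GGGCGG, again on either strand, occurs 4 times in the window of Vegfb and 0 times in that of Hgf, and was found in 32.7% of windows. The AP-1 motif TGANTCA was in neither and in 6.75% of windows. The other windows differed among themselves. The core was absent from the window of Vegfc, from the first of Vegfa and from a second Hgf window. It occurred 2 times in a second Vegfa window and 1 time each in the window of Fgf2 and in 1 of 2 windows of Pgf. These windows with a core are largely exonic. Annotated exons cover 218 of the 250 bases in the second Vegfa window, which lies inside the gene, and all 250 in those of Fgf2 and Pgf. An absent core says only that these letters are not in that window.

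**Figure D3:**
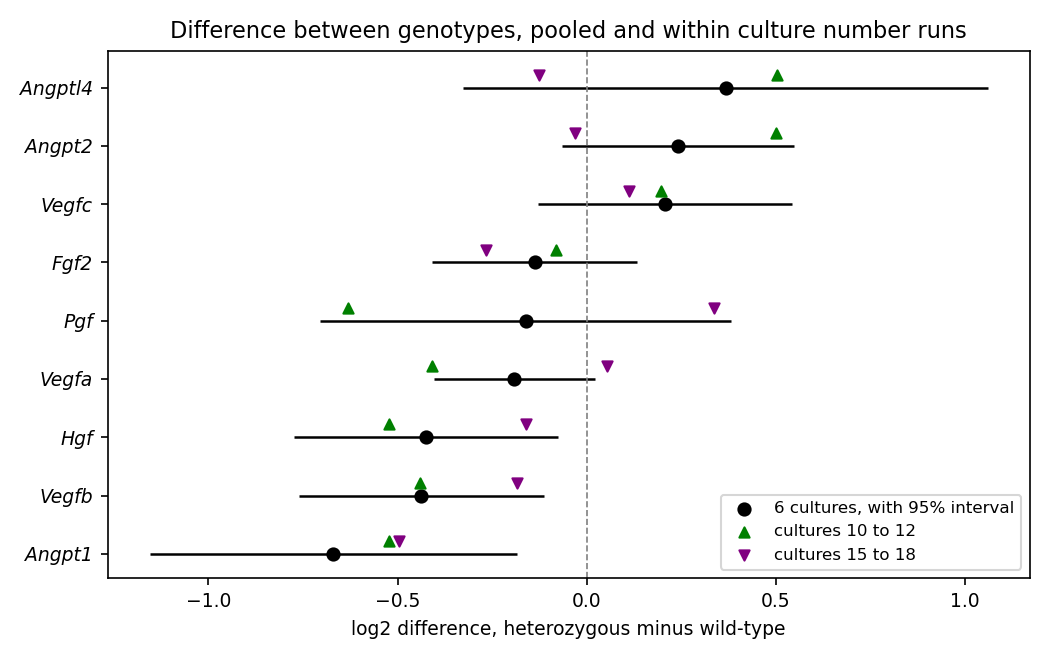
The horizontal axis is the log2 difference, heterozygous minus wild-type, for each of the 9 genes. Black points and lines give the edgeR estimate over 6 cultures and its 95% interval. Triangles give the difference of mean log2 CPM within cultures 10 to 12 (green) and 15 to 18 (purple), which is not an edgeR estimate. The intervals of Angpt1, Vegfb and Hgf do not reach 0, and the triangles of Vegfa, Pgf, Angpt2 and Angptl4 lie on both sides of 0.

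Only Angpt1, Vegfb, Hgf, Fgf2 and Vegfc had the same sign within both culture number runs, where 1 genotype has a single culture, and these differences were not tested. Without wild-type culture 16, edgeR called Angpt1 and Vegfb, 2 of the 9 genes, where 5.93% of genes were called. In the 4 libraries registered first it called Angpt1, Vegfb and Angptl4, where 9.83% were called. In that set all wild-type cultures belong to the run 10 to 12 and all heterozygous cultures to the run 15 to 18, so genotype and run cannot be told apart. Without any 1 of the other 5 cultures none of the 9 was called.

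None of the 14 receptors and co-receptors of these ligands was called, and the mean was higher in heterozygous cultures for 12 of them, against 7265 of 14652 genes, with a median log2 difference of 0.22. Averaged over the list on the log2 scale and set against the wild-type mean, the cultures stood at 0.01, -0.13 and 0.12 for the wild-type and 0.11, 0.35 and 0.23 for the heterozygous group. The groups overlapped, with wild-type culture 16 above heterozygous culture 11, and culture 16 lay within the heterozygous range for Met, Flt4, Flt1 and Itgav. Nrp1, a co-receptor for VEGF proteins, was at 118, 118 and 122 CPM in the wild-type and 153, 152 and 131 CPM in the heterozygous cultures, a log2 difference of 0.29 (SE 0.069, adjusted p = 0.313 in edgeR). The groups did not overlap. Kdr, the main VEGF-A receptor, likewise did not overlap, at 7.43 to 16.4 and 16.5 to 19.1 CPM (log2 difference 0.57, SE 0.24, adjusted p = 0.398 in edgeR), though wild-type culture 16 was only just below heterozygous culture 18. Met, the HGF receptor, differed by 0.49 (SE 0.18) and Flt4, the VEGF-C receptor, by 0.59 (SE 0.28), and both overlapped. Kdr, Tek and Tie1 are also endothelial markers. The other endothelial markers went both ways, with Pecam1 at 0.75 (SE 0.46) and Egfl7 at -0.59 (SE 0.21). Pecam1 was at 5.38 CPM in heterozygous culture 15, against 1.66 and 2.54 CPM in 11 and 18. Its wild-type values were 1.34 to 2.38 CPM. Culture 15 was also highest over the endothelial list, at 0.61 on the same averaged log2 scale. The part of endothelial markers in the receptor values was not tested. Flt1, bound by the products of Vegfa, Vegfb and Pgf, was the most abundant of the VEGF receptor kinases at a mean of 27.2 TPM in wild-type and 34.5 TPM in heterozygous cultures.

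**Figure D4:**
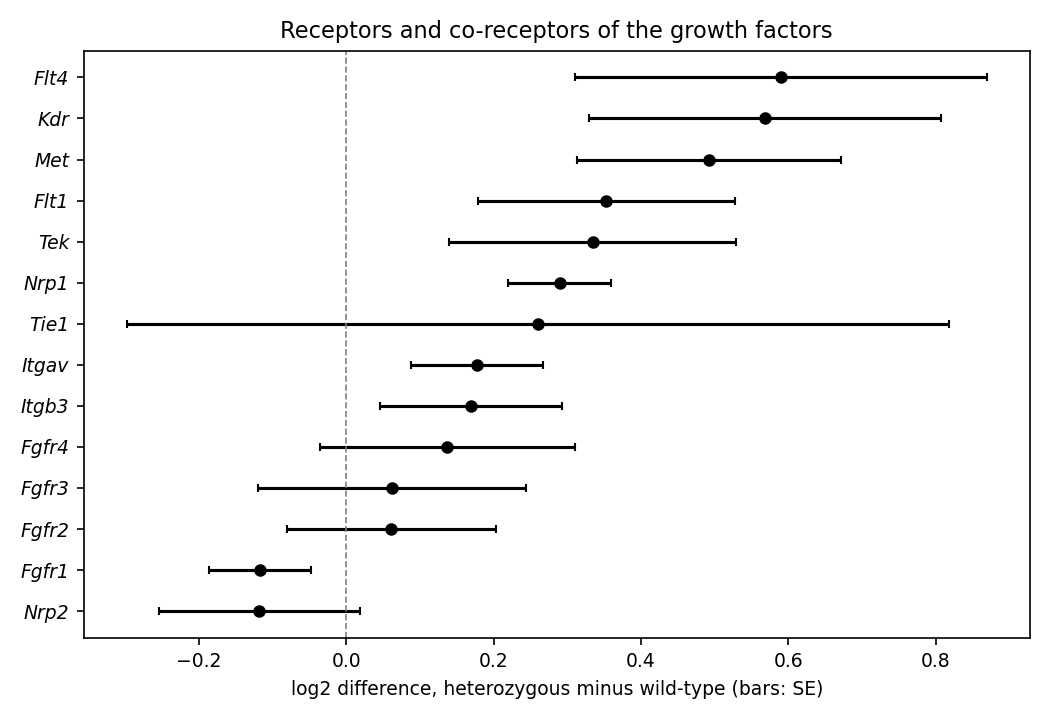
Points give the log2 difference, heterozygous minus wild-type, of each receptor and co-receptor gene over 6 cultures, with bars of 1 SE. Of the 14 genes 12 lie above 0, from 0.06 for Fgfr2 to 0.59 for Flt4, and Fgfr1 and Nrp2 lie at -0.12 each.

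Other secreted growth factors of vessels were balanced, with 10 of 21 tested genes higher, 11 lower and none called in edgeR. The heparin-binding growth factor genes Mdk and Ptn differed by -0.34 (SE 0.092) and -0.38 (SE 0.14), and Angptl1 by -0.66 (SE 0.21). Adm, encoding the vasoactive peptide adrenomedullin, differed by 0.64 (SE 0.23). Mdk was at 196, 190 and 177 CPM in the wild-type and 169, 140 and 134 CPM in the heterozygous cultures without overlap, while wild-type culture 16 overlapped with the heterozygous cultures for Angptl1, Ptn and Adm. Of 11 tested inhibitors and decoys 7 were higher and 4 lower, none called. Among them were the protease inhibitor gene Timp3 (0.24, SE 0.062), the matrix gene Thbs1 (0.48, SE 0.17), the chemokine gene Cxcl10 (0.59, SE 0.22) and the semaphorin gene Sema3f (-0.32, SE 0.13). Wild-type culture 16 lay within the heterozygous range for Thbs1 and Sema3f. The groups did not overlap for Timp3 and Cxcl10, but Cxcl10 was at 6.59 CPM in culture 16 and 6.64 CPM in heterozygous culture 11.

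Genes that process or anchor the ligands had no call either. Of 9 genes that act on HGF or in the plasminogen system that can activate it, 8 had higher means, among them the activators Plau (0.50, SE 0.23) and Plat (0.16, SE 0.081) and the receptor gene Plaur (0.46, SE 0.26). Wild-type culture 16 lay within the heterozygous range for Plau and above it for Plaur. Of 10 genes that process or hold VEGF-C and other heparin-binding ligands, 3 were higher and 7 lower. The heparan sulfate proteoglycan genes Sdc1 and Gpc1 differed by -0.16 (SE 0.064) and -0.17 (SE 0.072), the proprotein convertase gene Pcsk5 by -0.40 (SE 0.18) and the perlecan gene Hspg2 by 0.17 (SE 0.083). For Gpc1 and Pcsk5 wild-type culture 16 lay within the heterozygous range. The sign for Hspg2 was the opposite in TPM, with means of 237 in the wild-type and 205 in the heterozygous group.

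None of the HIF pathway genes, hypoxia target genes or PPAR target genes was called. The 10 HIF pathway genes hold both subunits of the factors and genes that restrain them, and 5 were higher and 5 lower. The subunit gene Hif1a measured 219 CPM on average in the wild-type and 229 CPM in the heterozygous group (0.06, SE 0.070). The largest difference among them was that of Cited2 (0.39, SE 0.22), while Vhl stood at -0.12 (SE 0.093) and Egln3 at 0.14 (SE 0.12), all of them genes that restrain HIF. For Cited2 wild-type culture 16 lay within the heterozygous range. Of 18 tested hypoxia target genes 11 were higher and 7 lower, with a median of 0.045. P4ha2 (-0.22, SE 0.072), Pfkfb3 (0.27, SE 0.093), Adm and Ero1a (0.14, SE 0.059) had the smallest p. PPAR target genes had a median of -0.04 over 11 tested genes, 5 higher and 6 lower, with Acadl at -0.13 (SE 0.075), Cd36 at 0.40 (SE 0.29), Plin2 at 0.17 (SE 0.13) and Hadha at -0.08 (SE 0.062).

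The genes whose log2 CPM followed Angpt1 most closely over the 6 libraries were Tprn, Nbr1 and Skida1, at Pearson's r of 0.998, 0.997 and 0.996. For Angptl4 they were Ptprn (0.999), Ddx39 (0.998) and Txnl1 (0.996). With 6 points such values are common, since 671 genes exceeded an r of 0.9 with Angpt1 and 762 with Angptl4, and the points share the genotype, the runs and the depth of their libraries.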

How the data were processed

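Messenger RNA libraries (Illumina TruSeq kit, per the labels' protocols) of 3 wild-type and 3 heterozygous cultures were grouped by sample title. The authors deposited RSEM gene-level tables, made with RSEM 1.3.1 on mm10 per the submitters' processing notes, which also name DESeq2. No source used here gives the aligner, annotation release or strand setting. The deposited expected counts estimate how many reads belong to each gene, shared between genes where reads match several (7.53% to 8.80% of values per library were not whole). Deposited TPM values are scaled for effective length, and the deposited FPKM values were not used. Deposited lengths are means over a gene's transcripts weighted by their estimated abundance.

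Expected counts were rounded, filtered with filterByExpr, scaled with TMM factors and compared in edgeR 4.0.16 (R 4.3.3) with the quasi-likelihood test over all 6 libraries without covariates. P-values were adjusted by Benjamini-Hochberg over all 14652 tested genes and called under 0.05. Differences are heterozygous minus wild-type, and intervals of ratios are at 95% from the fit. Over all genes the log2 differences had a median SE of 0.11, at a biological coefficient of variation of 11.3%. A floor of 3 counts covers counting error only. The 15 alternatives cover scaling, filter, tool (DESeq2 1.42.0, limma 3.58.1 on log2(TPM + 1)), length, culture number run, Y-linked expression, the 4 libraries registered first and leaving out each culture. The fit was tested on simulated data.

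Symbols came from the GENCODE mm10 names matched by Ensembl number (51633 of 51826 genes), coordinates from its annotation. That annotation holds later versions of Angpt1 (ENSMUSG00000022309.9) and Angptl4 (ENSMUSG00000002289.16) than the deposited counts, so the coordinates of these genes may differ from the counted models. The rule for named genes takes all 9 growth factors, Lztr1, up to 4 genes per pathway list by smallest unadjusted p, and the 3 genes most like each of the 2 members with the widest range. Further genes (Flt1, Tek, Tie1, Itgav, Fgfr1, Fgfr2, Nrp2 and the marker genes) were named after their values were seen, and a gene that the rule names is not reported here. The members and lists were chosen with earlier results of these data known.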

Additional observations from a re-analysis of the deposited data

How the results depend on the processing

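Of 135 values of the 9 genes under the 15 alternatives, 124 kept their direction and their side of the threshold, 5 more (DESeq2, for Vegfc, Pgf, Angpt1, Angptl4 and Hgf) kept their direction but have no adjusted p, and 5 passed the threshold where the pooled fit did not, namely Angpt1 and Vegfb without wild-type culture 16, and Angpt1, Vegfb and Angptl4 in the 4 libraries registered first. The difference of Pgf vanished in 1, at 0.00 without heterozygous culture 11, and its values with 1 culture left out ranged from -0.38 to 0.00. The count of called members was 3 in the 4 libraries registered first, from 0 to 2 when leaving out 1 culture at a time, and 0 under every other alternative. Over all genes the pooled fit called 1, against 32 without the low-count filter, 112 with DESeq2, 0 with limma on log2(TPM + 1), 0 with the effective length offset, 1450 in the 4 libraries registered first, and from 0 to 896 when leaving out 1 culture at a time. The 0 counts come with 1693 (limma) and 1625 (length offset) genes whose unadjusted p was under 0.05. Fitting the run of culture numbers as a covariate, the difference of Angptl4 was 0.19 against 0.37, and that of Angpt1 was -0.51 against -0.67. With Y-linked expression as a covariate, the difference of Pgf was -0.30 against -0.16 and that of Vegfa -0.24 against -0.19. Angpt1 was then at -0.65, and none of the 9 was called. Why these values move was not tested. No paired analysis was possible because the culture numbers are not shared between the genotypes. Angptl4 and Pgf, with 63 to 179 counts a library, had the largest SEs of the 9 in the pooled fit (0.30 and 0.24).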

Other observations

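Markers of other cell types varied between cultures of both genotypes. Skeletal muscle genes had lower means in heterozygous cultures in 7 of 7 tested genes, with a median log2 difference of -0.35. Averaged on the log2 scale against the wild-type mean, they stood at 0.27, 0.13 and -0.40 in the wild-type. The heterozygous cultures were at -0.04, -0.51 and -0.43, so wild-type culture 16 lay within their range. Macrophage markers had higher means in 8 of 8 tested genes, with a median of 0.19, at a summed level of 212 to 295 TPM in wild-type and 186 to 333 TPM in heterozygous cultures. Mural cell markers were evenly split, 4 higher and 4 lower. The smooth-muscle myosin gene Myh11 was at 0.48 (SE 0.16) and Mcam at 0.35 (SE 0.14), against Notch3 at -0.31 (SE 0.16) and Cspg4 at -0.095 (SE 0.056). The groups overlapped for Myh11, Mcam and Notch3 but not for Cspg4. Epithelial markers ranged from 114 to 186 TPM in summed level in wild-type and from 99.4 to 260.2 TPM in heterozygous cultures, and heterozygous culture 11 was lowest. None of these genes was called in edgeR over all genes, and their part in the growth factor values was not tested.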
